A study of Bos taurus with 2 samples.

Results

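The miR-25, miR-92 and miR-363 seed family was followed in cow milk whey, in the pelleted fraction that the labels call exosome and in the supernatant left above it. Members were taken by name, as every bovine miRNA on the array called miR-25, miR-32, miR-92, miR-92a, miR-92b, miR-363 or miR-367, with or without an arm suffix. This gave 6 miRNAs of the 670 on the array: bta-miR-25, bta-miR-32, bta-miR-92, bta-miR-92b, bta-miR-363 and bta-miR-367, written below without the species prefix. The exosome array carried RNA from the pellet of whey spun at 10000 g for 90 min at 4 °C and washed in PBS. The supernatant array carried RNA from the liquid above that pellet. The labels call this step ultracentrifugation, and the force is printed as they state it. Both fractions came from raw milk of Holstein cows, with no treatment, and the ages of the cows are not given in the sources used here. Before Cy3 labelling, equal parts of RNA from 3 milk samples were combined for each fraction, so each fraction is 1 array. Differences between the fractions thus have no replicates behind them and were not tested. Each ± on a signal is an SD over the spots of a single array, and for the negative controls these are spots of several control names. Each ± or SD on a log2 difference joins the SDs of both arrays. All are technical spreads.

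A miRNA recognises its targets mainly through its seed, bases 2 to 8 from its 5′ end, and miRNAs with the same seed share many predicted targets. Members of this family come from several gene clusters. miR-92a belongs to the miR-17-92 cluster and its copy on chromosome X, miR-363 to that same copy, and miR-25 to the miR-106b-25 cluster. The clusters are known in human and mouse for roles in cell proliferation and survival, and BCL2L11 (BIM), which promotes apoptosis, is a known target of family members there. miR-367 is known in human and mouse embryonic stem cells, where it is made with the miR-302 miRNAs.

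The longest probe of each member is printed because the letters show where the probes differ. A probe is the complement of the 3′ part of its miRNA, written 5′ to 3′, and capitals mark letters that complement the seed, where at least 3 of them stand at the probe's end.
miR-92, 16 bases: acaggccgggacaagt
miR-92b, 13 bases: ggaggccgggacg
miR-25, 18 bases: tcagaccgagacaaGTGC
miR-32, 19 bases: atgcaacttagtcatGTGC
miR-363, 15 bases: cgcagatggataccg
miR-367, 21 bases: tcaccattgctaaaGTGCAAT
The seed complement GTGCAAT (the seed being AUUGCAC), read from the end of the longer miR-367 probe, stood whole in that probe alone, which is 1 of 1465 probes or 0.0683%, and its reverse complement in 0 probes. The probes of miR-25 and miR-32 held 4 of its letters, and those of miR-92, miR-92b and miR-363 held fewer than 3. The probes of the members therefore differ mainly in letters that pair with the 3′ parts of the miRNAs. The seed they share adds little to any probe but those of miR-367. How far the signals of the members are separate was not tested.

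The closest pairs of probes were those of miR-25, miR-92 and miR-92b. Compared from the first base on the longest probes, miR-25 and miR-92 differed at 3 of 16 bases. On these probes miR-92 and miR-92b differed at 3 of 13, with a shared run of 10 bases. The last base of the longest miR-92b probe is among those that differ, and its shorter probes lack it, so they are closer still to miR-92. Over the other pairs of members, 5 to 15 bases differed. No probe of another miRNA on the array lay within 1 mismatch of a member's probe, at any shift.

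The array design places the probes in HGSC Btau_3.1 without naming a strand. Both miR-92 probes carry the names miR-92 and miR-92a and 2 positions each. The 16-base probe lies at chr12:64665856-64665871 and on unplaced scaffold Un.004.53 from 181034 to 181049. The signal called miR-92 is therefore the sum of what both genes made, and their shares cannot be told apart. The 15-base miR-363 probe lies on the same scaffold from 180889 to 180903. The 18-base miR-25 probe lies at chr25:38456031-38456047, the 19-base miR-32 probe at chr8:103684295-103684312, the 21-base miR-367 probe at chr6:14130251-14130270 and the 13-base miR-92b probe at chr3:16805709-16805720. For the last 4 the stated interval falls 1 base short of the probe's length, and 1 of its ends is uncertain by that base.

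All 6 members matched a RefSeq gene in ARS-UCD2.0, an assembly from which only names and neighbours were taken. MIR92A-1 has 5 other miRNA genes within 10 kb (MIR17, MIR18A, MIR19A, MIR20A and MIR19B). MIR92A-2 also has 5, of which MIR363 is 1. MIR25 overlaps MCM7, a gene for a subunit of the replicative helicase, and lies beside MIR106B and MIR93. MIR367 overlaps LARP7 beside 4 miR-302 genes, and MIR32 overlaps TMEM245. MIR92B has no miRNA gene within 10 kb.

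The first comparison asked which members were seen in each fraction. miR-92 was detected on both arrays, miR-25 on the exosome array only, and miR-32, miR-92b, miR-363 and miR-367 on neither. Detection of a probe meant that 50% or more of its spots carried the scanner software's flag for a signal well above background; a miRNA needed 1 such probe. Thus 2 of 6 members were detected on the exosome array, where 9.85% of all miRNAs were, and 1 of 6 on the supernatant array, where 12.7% were. Detection on both arrays was found for 4.48% of all miRNAs, on the exosome array only for 5.37%, and on the supernatant array only for 8.21%. With 6 members these shares are a description and set the family apart from nothing.

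miR-92 had processed signals, the background-subtracted brightness in intensity units, of 46.7 ± 5.66 in exosome (60 spots) and 58.7 ± 5.90 in supernatant (59 spots). Its 16-base probe read between 57.1 and 86.2 with a median of 70.5 in exosome against 72.1 to 96.2 with a median of 84.6 in supernatant. Its 15-base probe read 15.96 to 31.7 with a median of 23.5 in exosome against 21.6 to 44.8 with a median of 32.4 in supernatant. The spots of the 2 arrays overlapped on both probes, and the supernatant spots lay higher: 1 of 30 exosome spots of the longer probe and 0 of 30 of the shorter exceeded the supernatant median. Of the spots kept, 29 of 30 on the 15-base probe of the exosome array were well above background, and all spots of the other probe and of the other array were.

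miR-25 had signals of 19.3 ± 3.04 in exosome (56 spots) and 3.95 ± 2.75 in supernatant (59 spots). Its 18-base probe read 29.5 to 41.7 with a median of 36.2 in exosome against 2.60 to 15.7 with a median of 8.23 in supernatant. The spots of this probe did not overlap between the arrays, and 28 of 28 exosome spots were well above background against 0 of 30 supernatant spots. Of the same 30 supernatant spots, 28 were positive and significant by the software's looser flag, and the mean of the 30 was 7.59 ± 2.80, against 4.41 ± 3.35 for the negative control spots of that array. The 17-base probe read 3.05 ± 1.96 in exosome and 0.32 ± 2.69 in supernatant, and was not detected on either. On the exosome array 2 spots of each miR-25 probe were left out as outliers. The brighter was at 33.6 for the 17-base probe and 50.4 for the 18-base probe.

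**Figure D1:**
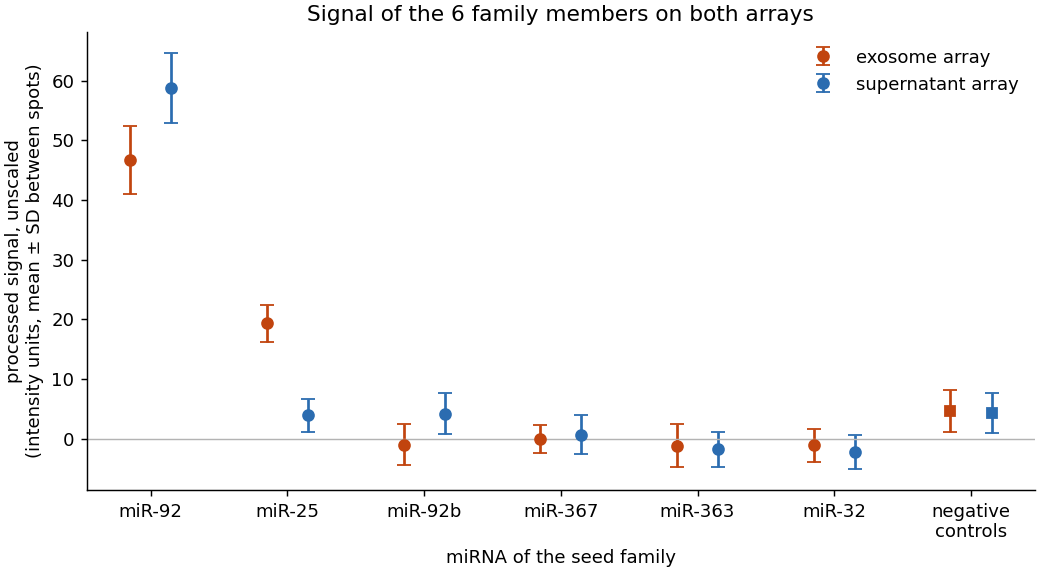
Processed signal, unscaled, in intensity units (vertical axis) of the 6 family members and of the negative control spots (horizontal axis), on the exosome array (orange) and the supernatant array (blue). Points are means over the spots of all probes of a miRNA and bars are SDs between spots. miR-92 stands at 46.7 in exosome and 58.7 in supernatant, and miR-25 at 19.3 in exosome and 3.95 in supernatant, while the other 4 members lie between -2.26 and 4.24.

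The mean signals of the other 4 members lay below those of the negative controls on both arrays. The controls read 4.67 ± 3.46 in exosome (981 spots) and 4.41 ± 3.35 in supernatant (976 spots). The nearest to them was miR-92b in supernatant. miR-92b read -0.97 ± 3.38 in exosome and 4.24 ± 3.43 in supernatant. On all 4 of its probes the mean was lower in exosome, at -2.54 to 0.23, against 3.44 to 6.11 in supernatant, but 0 spots were well above background. Its probes are the shortest and most GC-rich of the family, at 10 to 13 bases and 81.8% to 90.0% G and C. No level or difference can therefore be given for miR-92b.

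miR-363, the neighbour of MIR92A-2, read -1.15 ± 3.59 in exosome and -1.74 ± 2.92 in supernatant. miR-32 read -1.11 ± 2.81 in exosome and -2.26 ± 2.82 in supernatant. miR-367 read -0.058 ± 2.30 in exosome and 0.67 ± 3.26 in supernatant. Of the spots kept, none of these 3 had one well above background on either array. Of the 14-base miR-363 probe, 2 exosome spots were left out as outliers, the brighter at 31.5. Of the 20-base miR-367 probe, 8 of 30 exosome spots were left out, the brightest at 6.90. These values say that the 3 miRNAs were not detectable at this brightness, not that they were absent.

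**Figure D2:**
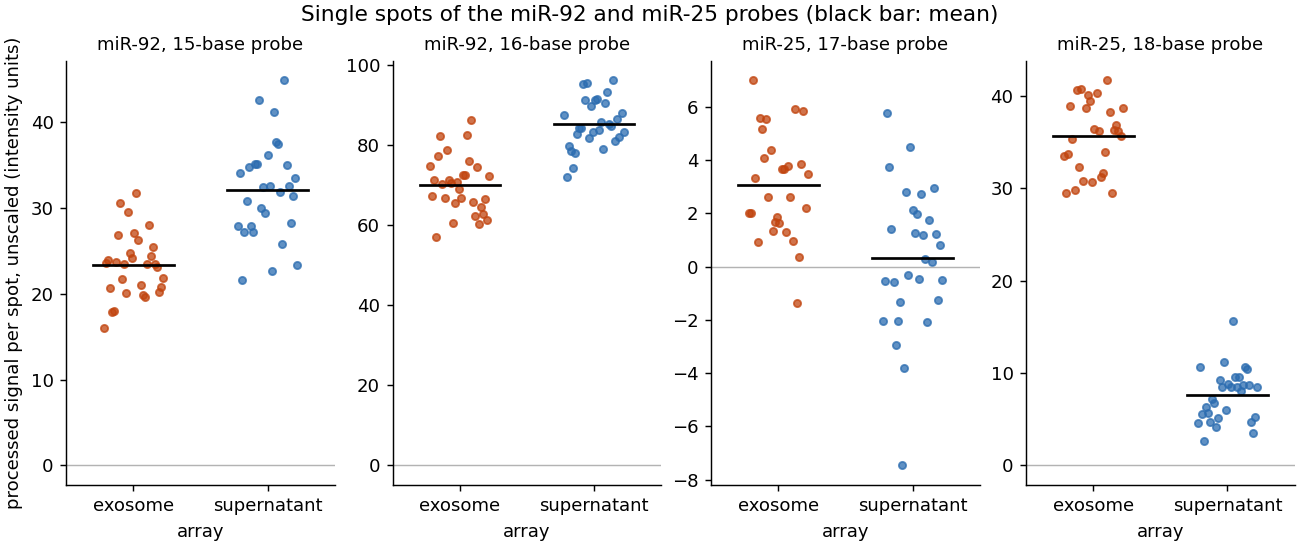
Processed signal of each spot, unscaled, in intensity units (vertical axis), for the 2 probes of miR-92 and the 2 probes of miR-25, each panel with its own scale. Exosome spots (orange) stand left of supernatant spots (blue), outlier spots are left out, and the black bar is the mean. The arrays overlap for both miR-92 probes, while the 18-base miR-25 probe separates them, at 29.5 to 41.7 in exosome against 2.60 to 15.7 in supernatant.

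The second comparison asked how far the detected members differed between the fractions. Without scaling, miR-92 had a log2 difference, exosome over supernatant, of -0.33 with an SD between spots of 0.23, so it was 1.26-fold brighter in supernatant. Scaling set the 75th percentile of the 53 probes seen on both arrays, 473 for exosome and 15030 for supernatant, to the same level. The difference was then 4.66, or 25.3-fold higher in exosome. Both probes gave like values, 4.53 ± 0.34 for 15 bases and 4.70 ± 0.18 for 16 bases after scaling, and -0.46 and -0.29 without. The direction for miR-92 therefore depends on the scaling, and the shift between these readings, 4.99, is the same for every miRNA on the array.

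miR-25 was not detected on the supernatant array, so its fold is a lower bound: the detected probe against the higher of its own supernatant signal and the lowest signal of a detected probe there, 18.8. It was at least 1.89-fold higher in exosome without scaling and at least 60.1-fold after scaling. The measured means of that probe were 35.6 ± 3.83 in exosome and 7.59 ± 2.80 in supernatant. All 36 miRNAs detected on the exosome array only (100%) had a scaled bound of at least 2-fold, so the scaled bound sets miR-25 apart from none of them. Without scaling 19 of them (52.8%) had one of at least 2-fold, and miR-25 fell short of that.

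Which scaling is used settles the sign for miR-92. The log2 difference was 4.63 with the median of the probes detected on both arrays and 3.48 with quantile normalization. It was -0.077 with the 75th percentile of all probes, -0.25 with the hybridisation controls (RNA spiked in before hybridisation) and -1.92 with the labelling controls (RNA spiked in before labelling). The labelling controls dmr_285 and dmr_31a were themselves 3.47-fold and 2.60-fold brighter on the exosome array, while dmr_3 and dmr_6, added for the hybridisation, were at 0.96-fold and 0.93-fold. The part of labelling in the values of miR-92 and miR-25 was not tested. With the labelling controls miR-25 had no bound above 1-fold.

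**Figure D3:**
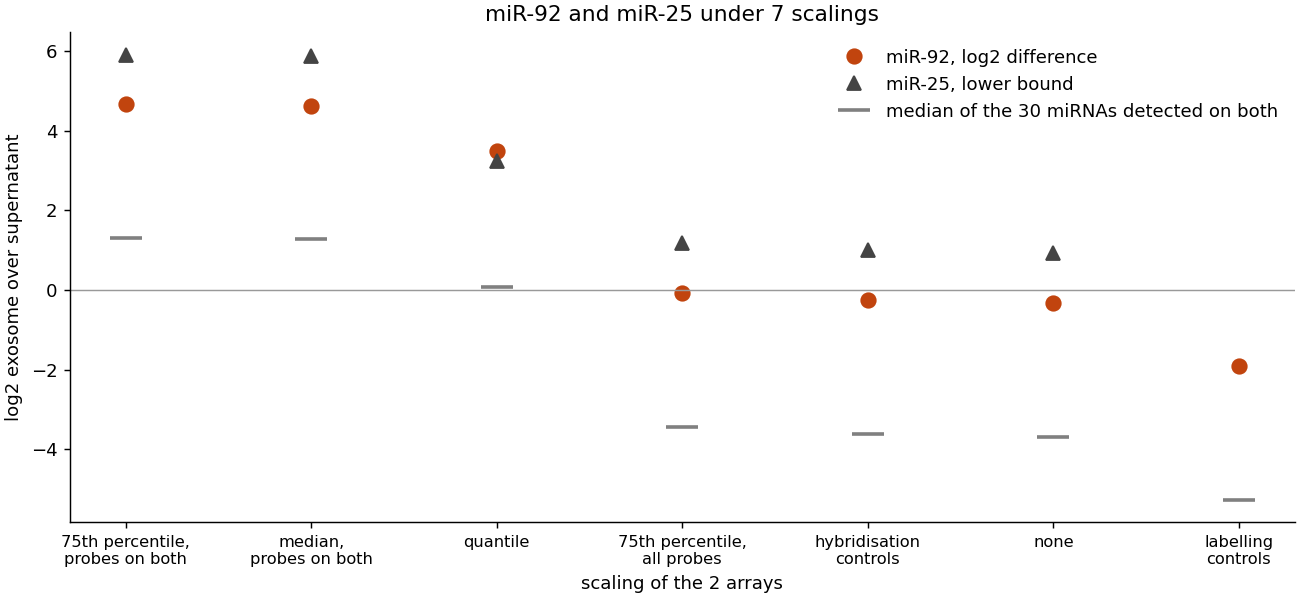
log2 exosome over supernatant (vertical axis) of miR-92 (orange circles, difference), miR-25 (dark triangles, lower bound) and the median of the 30 miRNAs detected on both arrays (grey bars) under 7 scalings (horizontal axis). miR-92 lies above 0 under 3 scalings, from 3.48 to 4.66, and below 0 under 4, from -1.92 to -0.077; miR-25 has no bound with the labelling controls.

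The place of miR-92 among other miRNAs does not move when an array is multiplied by a constant. Its difference was the 7th highest of the 30 miRNAs detected on both arrays, with a median of 1.30 for the 30 after scaling and -3.69 without. Of the 30, 18 (60%) were higher in exosome after scaling and 6 (20%) without. miR-92 thus lay above the median of the 30 by the same amount under each constant, and just below the 6 miRNAs that were brighter on the exosome array without scaling. It was the 8th with quantile normalization and with odd spots alone.

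The contrast between miR-25 and miR-92 is also free of such constants. The exosome over supernatant ratio of miR-25 was at least 2.38-fold that of miR-92, or 1.25 on the log2 scale. Spots of odd order gave 2.47-fold and spots of even order 2.39-fold. The contrast shrank to 1.24-fold with normexp background correction and an offset of 50, and to 0.84-fold with quantile normalization, where the bound no longer exceeds the difference of miR-92. All 36 miRNAs detected on the exosome array only (100%) had a scaled bound above the difference of miR-92, so the detection that put miR-25 among them also set the direction of this contrast. It is given as a description and sets miR-25 apart from none of them.

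Cluster partners of the family were taken from a list of 15 array miRNAs of the miR-17-92 cluster, its copy on chromosome X, and the clusters around miR-25 and miR-367. Of these, 3 were detected on the exosome array (miR-20a, miR-19b and miR-106b), 0 on the supernatant array and 12 on neither, against 9.85% and 12.7% of all miRNAs on these arrays. miR-20a and miR-19b have genes beside MIR92A-1 and miR-106b beside MIR25. Another miR-19b gene, MIR19B-2, lies beside MIR92A-2, and the shares of the miR-19b genes were not told apart. miR-93, the other neighbour of MIR25, read 0.67 ± 3.31 in exosome and -2.44 ± 3.22 in supernatant and was not detected.

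miR-20a, which shares its seed with miR-17, read 68.2 ± 7.13 in exosome and 1.15 ± 3.26 in supernatant, at least 3.63-fold higher in exosome without scaling. miR-19b, with a seed other than that of miR-17, read 19.7 ± 4.06 in exosome and -1.21 ± 3.65 in supernatant, at least 1.85-fold higher. miR-106b read 13.4 ± 3.75 in exosome and -0.61 ± 2.94 in supernatant, at least 1.11-fold higher. For miR-19b and miR-106b only the longer of 2 probes was detected, at 34.9 and 20.8 in exosome, and the bounds use these probes. The shorter probes read 4.62 and 6.05 there. miR-20a, miR-19b and miR-106b were all near 0 on the supernatant array, where miR-92, which shares clusters with miR-20a and miR-19b, was detected.

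Relative to miR-92, the exosome over supernatant ratio was at least 4.56-fold for miR-20a, 2.33-fold for miR-19b and 1.39-fold for miR-106b under each constant per array. With quantile normalization miR-20a kept 4.56-fold, while miR-19b had 0.80-fold and miR-106b 0.33-fold. With normexp they were 1.64-fold, 1.23-fold and 1.07-fold. These 3 were also detected on the exosome array only, where 100% of such miRNAs lay above miR-92, so the direction of their contrast followed from detection too. With the labelling controls miR-20a had a bound above 1-fold, while miR-19b and miR-106b had none.

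**Figure D4:**
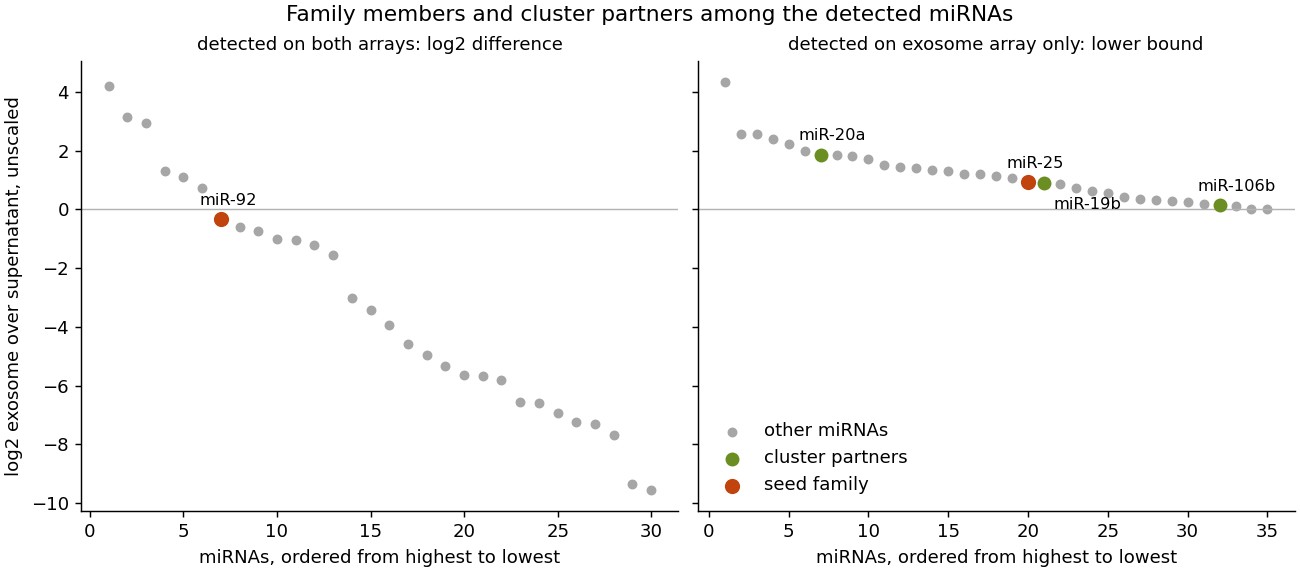
log2 exosome over supernatant without scaling (vertical axis) for the 30 miRNAs detected on both arrays (left panel, difference) and for the 35 of 36 miRNAs detected on the exosome array only that have a lower bound (right panel), ordered from highest to lowest (horizontal axis). Orange points are family members, green points cluster partners and grey points other miRNAs. miR-92 is the 7th of 30 at -0.33, and miR-25 has a bound of 0.92 beside miR-19b at 0.89.

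The miRNAs most like miR-92 over the 2 scaled log2 signals, of 29 others detected on both arrays, were miR-2304, miR-30a-5p and miR-664, at distances of 0.30, 0.52 and 1.06 log2 units. miR-2304 read 40.1 ± 5.13 in exosome and 67.4 ± 8.32 in supernatant, and miR-30a-5p read 39.7 ± 5.73 in exosome and 80.8 ± 7.89 in supernatant. For miR-25, the nearest in exosome signal of 35 others detected there only were miR-331, miR-19b and miR-27b, within 0.072 log2 units. Brightness of different probes is not a measure of RNA amount, so this likeness is one of array signal.

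Markers of other cells were set beside the family, since miR-92a and miR-25 are also known from human red blood cells. The erythroid miRNAs miR-451 and miR-144 were not detected: miR-451 read -0.78 ± 3.40 in exosome and -0.62 ± 2.87 in supernatant. miR-486, the other erythroid marker, read -1.79 ± 3.27 in exosome and 34.1 ± 6.20 in supernatant. The summed signal of the 3 erythroid markers was -2.10 in exosome and 33.4 in supernatant, and its part in the miR-92 signal was not tested. Of 8 leukocyte markers, 0 were detected in exosome and 1 in supernatant, miR-223, with a summed signal of 6.90 in exosome and 17.6 in supernatant. Of 19 miRNAs named for mammary epithelium and milk, 14 were detected in exosome and 7 in supernatant. Their summed signal was 2524 in exosome and 717 in supernatant, with let-7b the brightest in exosome at 828. Of those detected on both arrays, let-7b, miR-141, miR-200c and miR-375 were brighter in exosome. The others, miR-30a-5p, miR-30d and miR-320, were brighter in supernatant. Of all miRNAs on the array, 9.85% were detected in exosome and 12.7% in supernatant. The signals and sums of these marker lists are unscaled, and a sum over different probes is one of array signal, not of RNA amount. Exosome markers are proteins, so the exosome label could not be checked on this array.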

How the data were processed

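Small RNA of 2 fractions was measured on 1-colour Agilent miRNA arrays labelled with Cy3 from 40 ng of RNA. Per the file headers and the submitters' processing notes, spots were read with Agilent Feature Extraction 10.7.3.1. The scanner files give several intensities per spot. The processed signal used here is the one from which the software had subtracted the background. The normexp correction started from the mean signal and the background signal of each spot. As deposited, the arrays were not put on a common scale, and the scalings named above were applied here. The deposited value table holds log2 values of the software's total signal divided by 0.1, a relation found by comparing it with the scanner files.

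Each array held 42364 spots, 40200 of them for miRNAs, and 0 were saturated. Without outlier spots (1005 exosome, 1032 supernatant), means were taken over the spots of each probe and then over the probes of each miRNA; the SD is the root mean square of the probes' SDs. All scaling and detection ran on all 670 miRNAs. A bound uses the probes detected on the brighter array. The number of arrays limits the precision. Named were all members, all detected partners and the 3 nearest miRNAs by signal. Members and lists were chosen with earlier results of these data known. The lists of partners and markers, 7 detection rules or spot choices and 7 scalings are those given here. The log2 differences of miRNAs detected on both arrays were tested on simulated data, after a common offset was taken out. There a fixed signal threshold stood in for the scanner software's flag, and no simulated miRNA was set near it. The simulation therefore could not test the detection rule for signals as dim as that of miR-25. The choice of scaling, the lower bounds and the normexp correction were not tested there. Normexp correction used limma 3.58.1 in R 4.3.3, and all else Python 3.11.15 with pandas 2.3.3, numpy 2.4.6 and matplotlib 3.10.9.

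Of the other marker lists, 2 of 7 muscle miRNAs were seen, on the supernatant array alone. On either array, 0 of 1 liver, 0 of 4 neuron and 0 of 9 endothelial and mesenchymal miRNAs were seen. The shares over all miRNAs were 9.85% in exosome and 12.7% in supernatant.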

Additional observations from a re-analysis of the deposited data

How the results depend on the processing

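Detection of the family moved under 2 of the alternatives. Under the software's looser flag (positive and significant spots), 2 members were detected on the exosome array as before, and 3 on the supernatant array, where miR-25 and miR-92b were added. That flag detected 26.3% of all miRNAs in exosome and 27.0% in supernatant, and 7 cluster partners on the exosome array. With every probe required, miR-25 was lost, which left 1 member, 1 cluster partner and 5.22% of all miRNAs on the exosome array. The software's gene flag, outlier spots kept, and odd or even spots changed the detection of no member; the flag added the partner miR-17-5p.

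For miR-92 the log2 difference was -0.33 without scaling, -0.077 with the 75th percentile of all probes, -0.25 with hybridisation controls, -1.92 with labelling controls, -0.33 in the deposited value table and 3.48 with quantile normalization, against 4.66. Chosen after the data were seen, no scaling was also joined to normexp (-0.34), outlier spots kept (-0.34), odd spots (-0.31) and even spots (-0.35). The other 10 alternatives gave 4.47 to 4.86.

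For miR-25 the log2 bound, 5.91, was 0.92 without scaling, 1.17 with the 75th percentile of all probes, 1.002 with hybridisation controls, 3.23 with quantile normalization, 4.78 with normexp, 6.83 with the software's total signal and 1.63 in the value table. Without scaling it was 0.97 with outlier spots kept, 0.99 for odd spots and 0.91 for even spots. With the lowest averaged signal of a detected miRNA as the floor it was 6.45, and 1.46 without scaling. No bound was left with labelling controls, with normexp without scaling, or on the 17-base probe alone. The shifts between constants per array follow from the constants; the cause of the others was not tested. No paired analysis was possible because each fraction has 1 array.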
